A study of Homo sapiens with 39 samples.

Results

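OTX015 (birabresib) was set against its vehicle, DMSO, in DOHH2, known as a human B cell lymphoma line of the germinal centre type that carries a BCL2 translocation. The comparison rests on 6 of the 39 RNA-seq libraries of the series, 3 with OTX015 and 3 with DMSO, taken by their sample labels. Both groups are labelled 6 h, while a treatment text common to many samples names other compounds and a longer time, so the time rests on each sample's own label, and their total RNA, isolated with Trizol, went into Illumina TruSeq RNA libraries. The series also holds NEO2734, a compound known to bind the bromodomains of both BET proteins and CBP/p300, in DOHH2 and the same compounds and vehicle in OCILy10, TMD8 and Toledo. OCILy10 was also given CB103, whose libraries are in the fit but are not compared here. The labels state no dose. Nothing in them tells if replicates were grown apart, so p-values measure the spread between libraries, which may be technical.

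BET proteins bind acetylated histones through their bromodomains and help bring P-TEFb, the kinase that releases paused RNA polymerase II, to genes. OTX015 occupies those bromodomains. In B cell lymphoma, BET inhibitors are best known for lowering transcription of genes near large enhancers, among them B cell identity genes and, in many lines, MYC. HEXIM1, which holds P-TEFb inactive, is a widely used marker that rises when BET proteins are inhibited.

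The OTX015 libraries held 7771868 counts in replicate 1, 1765226 in replicate 2 and 1355440 in replicate 3, and the DMSO libraries held 8368887, 1529796 and 1632690. Replicate 1 of each group is called deep below and the others shallow. Between 13165 and 13668 genes had a count in the OTX015 libraries and between 13159 and 13702 in the DMSO libraries, and mitochondrially encoded genes took 6.53 to 8.97% and 5.31 to 9.02% of the counts. Genes private to OCILy10, TMD8 or Toledo had a median of 0% of their own line's level in all 6 libraries. Replicate 1 stood apart from replicates 2 and 3: 5484 of 12814 genes (42.8%) differed between the deep and shallow DOHH2 libraries. Depth was a term in the main fit, and in DOHH2 it cannot be told apart from any other difference of replicate 1. The 6 B cell markers summed to 917 to 4524 counts with OTX015 and 1741 to 7091 with DMSO. Of the T cell markers, CD2, CD5 and TRAC summed to 0 counts in every OTX015 library and to 0 to 4 in the DMSO libraries, and the monocyte genes LYZ, CSF1R and ITGAM to 0 to 2 and 0 to 6. Germinal centre markers were uneven. GCSAM had 240 to 1045 counts per OTX015 library and 228 to 1348 per DMSO library, S1PR2 27 to 134 and 34 to 259, and MME 8 to 340 and 24 to 479. BCL6, the defining factor of that stage, had 1 count in 1 OTX015 library and 0 in the other 5. LMO2 (0 to 6 with OTX015, 0 to 5 with DMSO), RGS13 (0, and 0 to 1), MEF2B (0 to 1, and 0 to 3) and CXCR5 (0 to 2, and 1 to 4) were also at or near 0, and MYBL1 had 3 to 11 and 0 to 15. The germinal centre type is the one known for the line, and these markers bore it out only in part.

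OTX015 changed 260 of 12814 genes (2.03%) at an edgeR adjusted p (Benjamini-Hochberg over all genes) under 0.05. Of these, 157 rose (1.23%) and 103 fell (0.804%), and 76 rises and 58 falls were at least 2-fold. The median log2 fold change was 0.99 among the genes that rose and −1.08 among those that fell, and −0.02 over all genes tested. In 201 of the 260 called genes the 3 OTX015 and 3 DMSO libraries did not overlap, against 13.5% of all genes tested. Of the called genes, 250 were protein coding and 7 had no symbol. Without a depth term 16 genes were called. With the replicate number as a block in place of the depth term, 137 genes were called, 88 higher and 49 lower. The count also moved with single libraries: it was 227 without DMSO replicate 1, 40 without DMSO replicate 2, 40 without DMSO replicate 3, 111 without OTX015 replicate 1, 64 without OTX015 replicate 2 and 25 without OTX015 replicate 3.

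**Figure D1:**
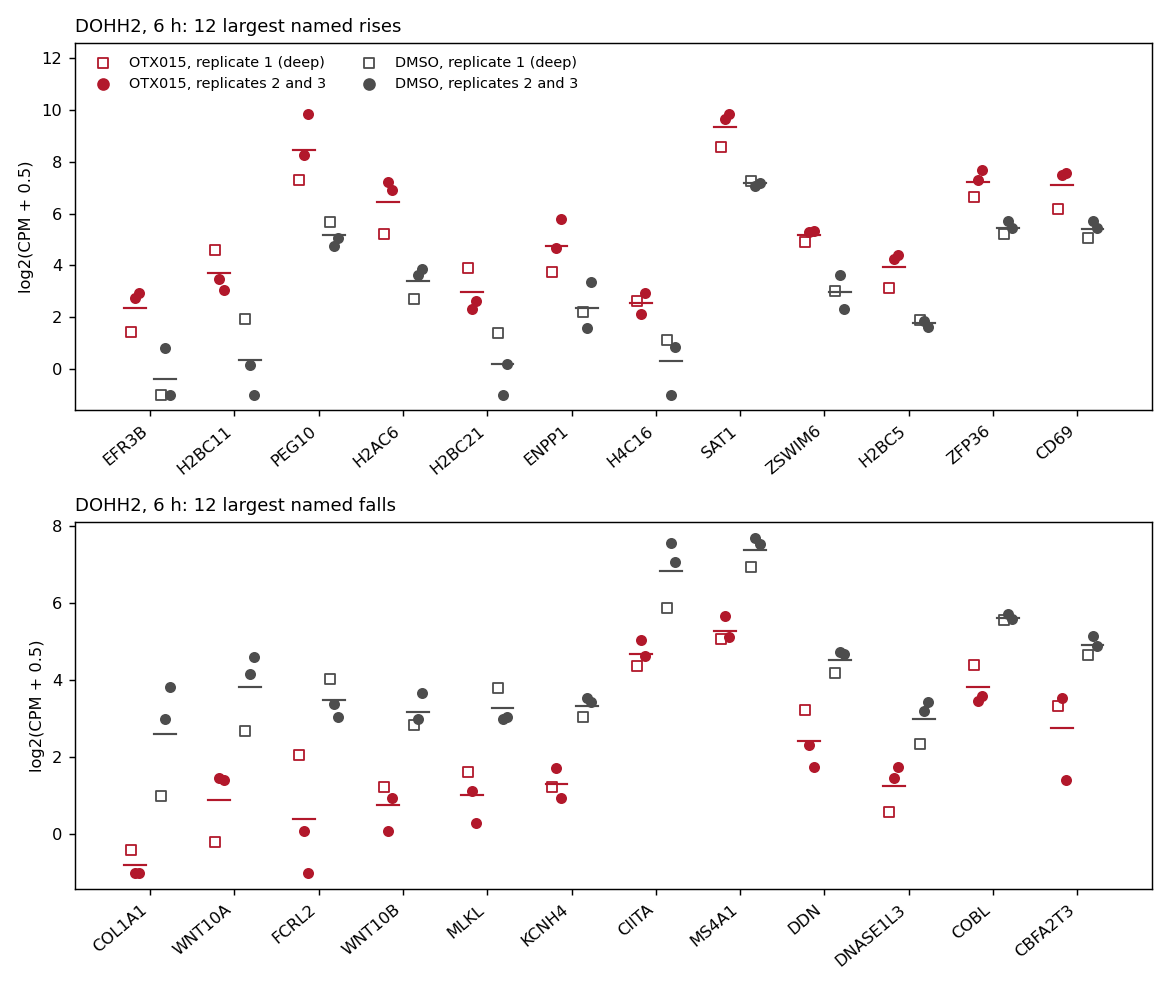
Levels in log2(CPM + 0.5), where CPM is the count scaled to library size after TMM normalization, of the 12 named rises (top) and 12 named falls (bottom) in the 3 OTX015 (left, red) and 3 DMSO libraries (right, grey) of DOHH2. Open squares are the deep libraries, filled circles the shallow ones and bars group means, and in all 24 genes the 3 OTX015 libraries lie on 1 side of the 3 DMSO libraries, which the rule for naming genes required.

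Histone genes stood among the largest rises. Of 33 listed histone genes, 29 were in the table and 23 could be tested: 5 rose (H2AC6, H2BC4, H2BC5, H2BC11 and H2BC21), 0 fell, and the median log2 fold change was 1.16. Over all genes tested, 1.23% rose and 0.804% fell. These genes encode the core histones H2A and H2B, and most replication-dependent histone genes lie in clusters on chromosomes 6 and 1. The windows of 250 bases before the start of 4 of them are shown because the genes rose together and share promoter elements. They are RefSeq sequences of GRCh38.p14, read 5′ to 3′ along the gene, with capitals marking the octamer ATTTGCAT, the TATA box TATAAA and the CCAAT box CCAAT, each on either strand.
H2AC6: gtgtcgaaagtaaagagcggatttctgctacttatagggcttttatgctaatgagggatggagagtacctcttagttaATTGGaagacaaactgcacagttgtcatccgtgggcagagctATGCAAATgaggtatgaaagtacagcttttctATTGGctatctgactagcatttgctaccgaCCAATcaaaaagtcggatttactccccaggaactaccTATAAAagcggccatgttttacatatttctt
H2BC5: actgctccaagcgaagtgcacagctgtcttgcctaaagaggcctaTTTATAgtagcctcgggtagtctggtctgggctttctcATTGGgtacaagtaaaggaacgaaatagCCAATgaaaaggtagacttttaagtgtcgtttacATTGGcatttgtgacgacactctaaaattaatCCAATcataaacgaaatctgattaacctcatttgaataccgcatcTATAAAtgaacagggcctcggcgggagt
H2BC11: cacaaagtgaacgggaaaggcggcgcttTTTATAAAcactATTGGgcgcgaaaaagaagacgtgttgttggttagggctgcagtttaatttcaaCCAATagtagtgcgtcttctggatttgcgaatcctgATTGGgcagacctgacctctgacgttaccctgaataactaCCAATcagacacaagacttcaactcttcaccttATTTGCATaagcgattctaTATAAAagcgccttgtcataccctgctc
H2BC21: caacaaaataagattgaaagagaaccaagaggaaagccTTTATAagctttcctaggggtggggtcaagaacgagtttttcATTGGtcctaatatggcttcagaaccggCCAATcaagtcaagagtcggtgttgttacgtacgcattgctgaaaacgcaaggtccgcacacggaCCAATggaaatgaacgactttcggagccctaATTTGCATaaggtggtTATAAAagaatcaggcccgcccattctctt
The windows lie at chr6:26123922-26124171 (H2AC6, plus strand), chr6:26157871-26158120 (H2BC5, plus strand), chr6:27132796-27133045 (H2BC11, minus strand) and chr1:149886683-149886932 (H2BC21, minus strand). Where 2 TATA motifs overlap, as in H2BC11 on opposite strands, the capitals run together. All 5 listed histone genes that rose held TATAAA and CCAAT, and 4 held the octamer, a site that OCT factors bind. H4C16 and H3C10, outside the list, were also called higher, and neither window held the octamer. That of H4C16 held no CCAAT box and TATAAA only at −250. That of H3C10 held TATAAA at −32 and 2 CCAAT boxes, and H3C10 passed in none of the fits with 1 library left out. H2BC4 is transcribed divergently from H2AC6, and 245 of the 250 bases of their windows are the same, so these 2 genes share 1 octamer, 1 TATA box, which lies near the start of H2AC6 at −31 and far from that of H2BC4 at −220, and 3 CCAAT boxes. Among all 23 histone genes tested, 11 windows held the octamer (47.8%), 12 TATAAA (52.2%) and 20 CCAAT (87%). Over the 9583 tested genes with a window the shares were 1.3%, 5.46% and 35.9%, and over the 129 genes that rose and had one, 5.43%, 14% and 37.2%. Those 129 include the 5 listed histone genes, which gave 4 of their 7 octamer windows and 5 of their 18 TATAAA windows. The shares of the rises therefore in part repeat the histone genes. A match describes letters in this window and is not a measured site.

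H2BC11 had 23.4, 10.6 and 7.88 CPM with OTX015, against 3.29, 0.619 and 0 CPM with DMSO. All 3 OTX015 libraries lay above all 3 DMSO libraries, although the deep libraries were the highest of each group. Its log2 fold change was 3.29 ± 0.47 (SE; edgeR adjusted p = 0.000891). H2AC6 had 36.4, 148 and 120 CPM with OTX015, against 6.01, 11.8 and 14.2 CPM with DMSO, a log2 fold change of 3.08 ± 0.50 (adjusted p = 0.00138 in edgeR). For H2AC6 the shallow libraries were the higher ones in both groups. Both genes also passed with each of the 6 libraries left out in turn and with the replicate block. H2BC5 averaged 15.9 ± 6.59 CPM with OTX015 and 2.95 ± 0.318 CPM with DMSO (SD, n = 3 each), and rose by 2.08 ± 0.49 on the log2 scale (edgeR adjusted p = 0.0245). H2BC21 rose by 2.87 ± 0.69 (edgeR adjusted p = 0.0287) and H2BC4 by 3.38 ± 0.75 (edgeR adjusted p = 0.0155). Both were low, with 135 and 20 counts summed over the OTX015 and the DMSO libraries for H2BC21, and they did not pass with the replicate block (edgeR adjusted p = 0.0662 for H2BC21 and 0.0614 for H2BC4). H4C16, an H4 gene on chromosome 12 that was not in the list, rose by 2.15 ± 0.57 (edgeR adjusted p = 0.0422), with 5.66, 3.90 and 7.17 CPM with OTX015 against 1.70, 0 and 1.29 CPM with DMSO. With single libraries left out, edgeR adjusted p ranged from 0.0644 to 0.210 for H2BC21 and from 0.0800 to 0.192 for H4C16, so that neither passed without any 1 of the 6. H2BC5 did not pass without DMSO replicate 2 (0.126), DMSO replicate 3 (0.151), OTX015 replicate 2 (0.0849) or OTX015 replicate 3 (0.114), and H2BC4 without DMSO replicate 1 (0.0741), 2 (0.0664) or 3 (0.0769) or OTX015 replicate 3 (0.0795). Histone genes are near-identical in sequence, and the counting program and its handling of shared reads are not known here.

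**Figure D2:**
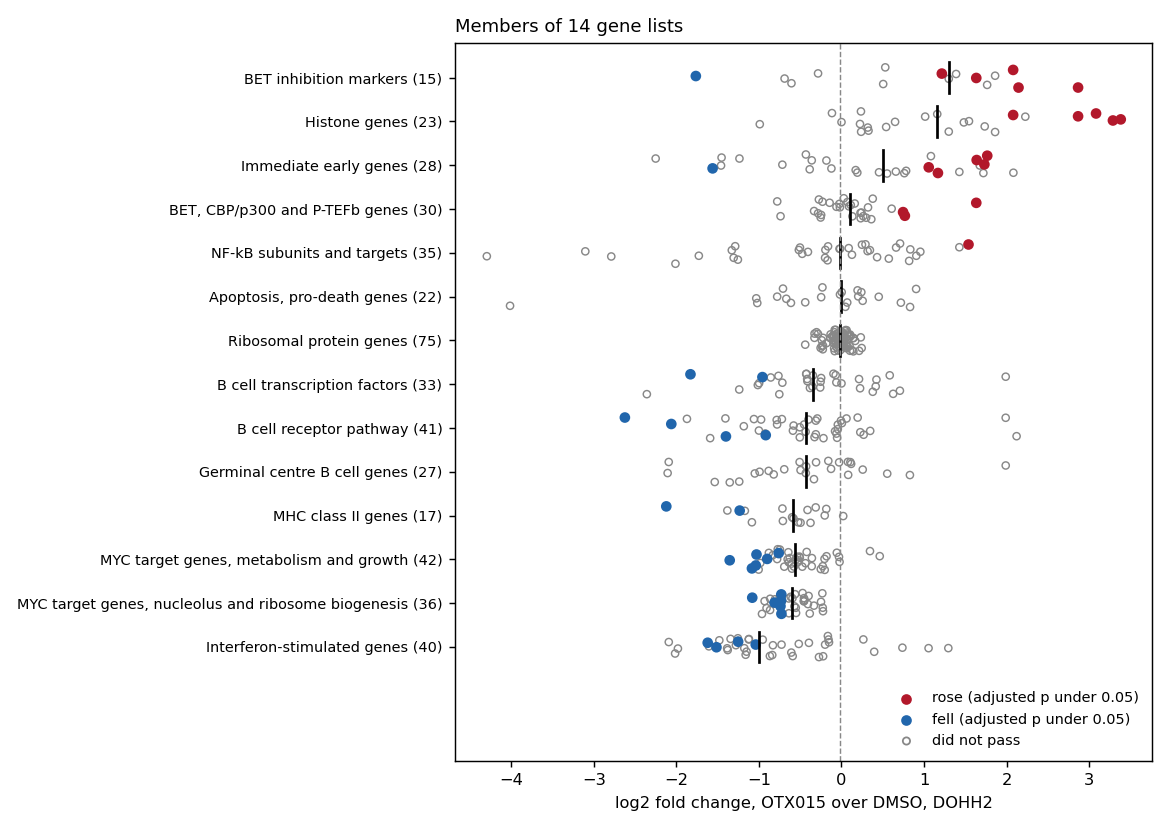
The log2 fold change, OTX015 over DMSO in DOHH2, of each tested member of 14 gene lists, with the number tested in brackets. Filled points rose (red) or fell (blue) at an edgeR adjusted p under 0.05, black bars are list medians and the dashed line is the median of all genes tested. Histone genes and BET inhibition markers have medians of 1.16 and 1.30, interferon-stimulated genes a median of −1.0, and 75 ribosomal protein genes sit near 0.

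Among 15 tested markers of BET inhibition, 5 rose, 1 fell and the median log2 fold change was 1.30 (1.23% of all genes tested rose and 0.804% fell). The list was written with earlier results of these data known. HEXIM1 (chr17:45148502-45152101, hg38, plus strand) had 84.1, 142 and 211 CPM with OTX015, against 33.4, 45.2 and 55.6 CPM with DMSO. The groups did not overlap, and the gene was 3.10-fold higher with OTX015 (log2 1.63 ± 0.24, edgeR adjusted p = 0.000891), also with the replicate block (edgeR adjusted p = 0.0164). SAT1, the acetyltransferase that starts polyamine breakdown, had 380, 798 and 915 CPM with OTX015 and 151, 134 and 146 CPM with DMSO. It rose by 2.14 ± 0.41 on the log2 scale (edgeR adjusted p = 0.00631). TXNIP, an arrestin-fold protein that limits glucose uptake, had 217, 250 and 191 CPM with OTX015 and 95.2, 111 and 78.2 CPM with DMSO (log2 1.22 ± 0.30, edgeR adjusted p = 0.0328). The chemokine receptor gene CCR1 fell by 1.76 on the log2 scale, from few counts (edgeR adjusted p = 0.0379, and 0.0905 with the replicate block). SERPINI1, often induced by BET inhibitors, held 0.558 to 2.15 CPM with OTX015 and 0 to 0.647 CPM with DMSO and did not pass (edgeR adjusted p = 0.568). In fits with 1 library left out, SAT1 did not pass without DMSO replicate 2 (0.0735), DMSO replicate 3 (0.0787) or OTX015 replicate 3 (0.0504), while TXNIP (0.0802 to 0.193) and CCR1 (0.0614 to 0.213) passed in none of the 6.

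Of 30 tested genes for BET proteins, CBP/p300 and the P-TEFb machinery, 3 rose and 0 fell (1.23% and 0.804% over all genes tested). Besides HEXIM1 these were BRD2, 1 of the proteins OTX015 binds, and AFF1, a scaffold of the super elongation complex that holds P-TEFb. BRD2 had 577, 747 and 671 CPM with OTX015, against 341, 379 and 471 CPM with DMSO, with no overlap (log2 0.75 ± 0.14, edgeR adjusted p = 0.00507). AFF1 had 275, 277 and 259 CPM with OTX015, against 196, 135 and 147 CPM with DMSO (log2 0.77 ± 0.16, edgeR adjusted p = 0.0124, and 0.0632 with the replicate block). BRD3, CREBBP and EP300 did not pass, with log2 fold changes of 0.11 ± 0.27, 0.09 ± 0.17 and 0.32 ± 0.17. The signs of BRD3 and CREBBP changed in some of the alternative fits. Without DMSO replicate 2, BRD2 had an edgeR adjusted p of 0.0554. AFF1 did not pass without DMSO replicate 2 (0.109), DMSO replicate 3 (0.0935), OTX015 replicate 2 (0.0721) or OTX015 replicate 3 (0.0696).

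The other named rises had varied functions. EFR3B, which anchors a lipid kinase complex at the plasma membrane, had 2.21, 6.14 and 7.17 CPM with OTX015, against 0, 1.24 and 0 CPM with DMSO. Its 39 counts with OTX015 against 2 with DMSO gave a ratio of 20.6 with a 95% exact counting interval of 5.35 to 176, which covers counting error only (edgeR adjusted p = 0.00687). PEG10, an imprinted gene of retrotransposon origin, had 157, 305 and 911 CPM with OTX015, against 50.2, 26.6 and 33.0 CPM with DMSO (log2 3.18 ± 0.74, edgeR adjusted p = 0.0231). The OTX015 libraries of PEG10 lay all above the DMSO libraries but spread widely. ENPP1, an ectoenzyme that makes pyrophosphate from ATP, had 13, 25.1 and 54.5 CPM with OTX015, against 4.08, 2.48 and 9.70 CPM with DMSO (log2 2.28 ± 0.50, edgeR adjusted p = 0.0151). ZSWIM6, with the lowest p of all genes tested, had 29.4, 39 and 40.1 CPM with OTX015, against 7.48, 11.8 and 4.53 CPM with DMSO (log2 2.12 ± 0.24, edgeR adjusted p = 1.88e-05). It passed in all 6 fits with 1 library left out. Without a library, EFR3B did not pass for DMSO replicate 1 (0.0508) and DMSO replicate 3 (0.0619), PEG10 for DMSO replicate 2 (0.184), DMSO replicate 3 (0.194) and OTX015 replicate 3 (0.149), and ENPP1 for DMSO replicate 2 (0.126), DMSO replicate 3 (0.0685) and OTX015 replicate 3 (0.135).

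Immediate early genes, which cells transcribe within minutes of a stimulus, were mixed: of 28 tested, 5 rose, 1 fell and the median log2 fold change was 0.50. Among all genes tested, 1.23% rose and 0.804% fell. ZFP36, whose protein marks AU-rich mRNAs for decay, had 99.9, 157 and 208 CPM with OTX015, against 36.2, 52.0 and 42.7 CPM with DMSO. The groups did not overlap (log2 1.77 ± 0.28, edgeR adjusted p = 0.00117). Its relative ZFP36L1 went the other way, with 4.43, 27.3 and 11.5 CPM with OTX015 and 11.1, 48.3 and 78.9 CPM with DMSO (log2 −1.56 ± 0.31, edgeR adjusted p = 0.00710, and 0.102 with the replicate block). The groups of ZFP36L1 overlapped. JUND, an AP-1 subunit, had 36.9, 179 and 178 CPM with OTX015 and 14.7, 40.2 and 53 CPM with DMSO. The groups of JUND overlapped, with the deep library the lowest in both, and its call (log2 1.73 ± 0.26, edgeR adjusted p = 0.000891) was lost with the replicate block (edgeR adjusted p = 0.103). JUND did pass in all 6 fits with 1 library left out (edgeR adjusted p = 0.00373 to 0.0180). JUN and the antiproliferative gene BTG2 also rose, by 1.64 ± 0.41 and 1.06 ± 0.25 on the log2 scale (edgeR adjusted p = 0.0323 and 0.0244, and 0.0752 for JUN with the replicate block). KLF6 rose by 1.17 ± 0.27 on the log2 scale (edgeR adjusted p = 0.0206, and 0.0580 with the replicate block). Without single libraries, ZFP36L1 did not pass for DMSO replicate 3 (0.0933) and OTX015 replicate 3 (0.0891), and KLF6 for DMSO replicate 2 (0.135), DMSO replicate 3 (0.165), OTX015 replicate 2 (0.114) and OTX015 replicate 3 (0.0820). JUN passed in none of those 6 fits (0.0768 to 0.187), and BTG2 did not pass without DMSO replicate 2 (0.148), DMSO replicate 3 (0.127), OTX015 replicate 2 (0.119) or OTX015 replicate 3 (0.0903).

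Of 35 tested NF-kB subunits and targets, NFKBIA, the inhibitor that NF-kB itself induces, rose and 0 fell. NFKBIA had 167, 2066 and 3004 CPM with OTX015, against 84.8, 603 and 852 CPM with DMSO. The deep libraries were far below the shallow ones in both groups, and within each depth class the OTX015 libraries were higher (log2 1.53 ± 0.29, edgeR adjusted p = 0.00545, and 0.0859 with the replicate block). CCL5, a chemokine that draws T cells, had 12.2, 69.2 and 139 CPM with OTX015, against 4.31, 9.28 and 16.8 CPM with DMSO (log2 2.46 ± 0.49, edgeR adjusted p = 0.00710). The groups of NFKBIA and of CCL5 overlapped. CD69, an early activation antigen of lymphocytes, had 72.2, 180 and 191 CPM with OTX015, against 32.8, 51.4 and 42.7 CPM with DMSO, without overlap (log2 1.68 ± 0.44, edgeR adjusted p = 0.0379, and 0.157 with the replicate block). Without single libraries, NFKBIA did not pass for DMSO replicate 2 (0.0677) and OTX015 replicate 3 (0.0696), CCL5 for DMSO replicate 2 (0.0927), DMSO replicate 3 (0.0724) and OTX015 replicate 3 (0.0852), and CD69 for any of the 6 (0.0642 to 0.216).

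B cell surface and signalling genes were among the named falls. Of 41 tested genes of the B cell receptor pathway, 4 fell (0.804% of all genes tested did), 0 rose and the median log2 fold change was −0.43. MS4A1, which encodes the antibody target CD20, had 33.2, 50.2 and 34.4 CPM with OTX015, against 123, 206 and 184 CPM with DMSO (log2 −2.06 ± 0.45, edgeR adjusted p = 0.0145). In bulk RNA, fewer cells with a transcript and less transcript per cell cannot be told apart. LAT2, an adaptor of B cell receptor signalling, had 107, 102 and 104 CPM with OTX015, against 219, 320 and 295 CPM with DMSO. Its OTX015 libraries were close together and all below the DMSO libraries (log2 −1.40 ± 0.22, edgeR adjusted p = 0.00117), and the gene passed in all 6 fits with 1 library left out. FCRL2, an Fc receptor-like protein of B cells, had 3.69, 0.558 and 0 CPM with OTX015, against 16, 9.90 and 7.76 CPM with DMSO (log2 −2.62 ± 0.60, edgeR adjusted p = 0.0195). SASH3, a lymphocyte adaptor, fell by 0.92 on the log2 scale (edgeR adjusted p = 0.0379, and 0.0859 with the replicate block). Among fits that left out 1 library, MS4A1 passed without OTX015 replicate 1 and otherwise had edgeR adjusted p of 0.0563, 0.0554 and 0.0516 without DMSO replicates 1, 2 and 3 and of 0.0733 and 0.127 without OTX015 replicates 2 and 3. FCRL2 had 0.0635, 0.0735 and 0.0685 without DMSO replicates 1, 2 and 3 and 0.0898 and 0.0940 without OTX015 replicates 2 and 3, and SASH3 passed in none (0.0736 to 0.192).

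Among 33 tested B cell transcription factors, PAX5 and CBFA2T3 fell and 0 rose (0.804% and 1.23% over all genes tested). PAX5, which maintains B cell identity, had 107, 82.6 and 102 CPM with OTX015, against 142, 206 and 228 CPM with DMSO (log2 −0.96 ± 0.22, edgeR adjusted p = 0.0209). CBFA2T3, a corepressor of the ETO family, had 9.59, 11.2 and 2.15 CPM with OTX015, against 24.9, 35.3 and 29.1 CPM with DMSO (log2 −1.83 ± 0.37, edgeR adjusted p = 0.00807). Neither gene's groups overlapped. IRF4 did not pass and had 770, 1070 and 1219 CPM with OTX015 and 679, 747 and 818 CPM with DMSO (log2 0.42 ± 0.32, edgeR adjusted p = 0.611). Of the 27 tested germinal centre genes 0 passed, and their median log2 fold change was −0.43. TNFRSF17, the plasma cell receptor BCMA, fell by 1.79 on the log2 scale (edgeR adjusted p = 0.0379, and 0.134 with the replicate block), and the other 16 of 17 plasma cell genes tested did not pass. Without single libraries, PAX5 did not pass for DMSO replicate 2 (0.0992), DMSO replicate 3 (0.151), OTX015 replicate 2 (0.147) and OTX015 replicate 3 (0.110), CBFA2T3 for DMSO replicate 2 (0.0542) and OTX015 replicate 3 (0.0720), and TNFRSF17 for any of the 6 (0.0897 to 0.213).

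CIITA, the coactivator that switches on MHC class II genes, had 20.3, 32.4 and 24.4 CPM with OTX015, against 58.5, 188 and 135 CPM with DMSO. All OTX015 libraries lay below all DMSO libraries (log2 −2.12 ± 0.32, edgeR adjusted p = 0.000891), and the gene passed without each of the 6 libraries in turn and with the replicate block (edgeR adjusted p = 0.00875). Of the 17 tested MHC class II genes, 2 fell (0.804% of all genes tested did), 0 rose and the median log2 fold change was −0.58. The other was HLA-DMB, which helps load peptide, with 12.1, 46.9 and 18.6 CPM with OTX015 and 21.2, 90.3 and 91.2 CPM with DMSO (log2 −1.23 ± 0.31, edgeR adjusted p = 0.0360, and 0.0569 with the replicate block). The groups of HLA-DMB overlapped. The antigen-presenting chain genes HLA-DRA and HLA-DRB1 did not pass, with log2 fold changes of −0.41 and −0.72, nor did the invariant chain gene CD74, at 0.02. Of 17 tested MHC class I presentation genes, 0 passed. HLA-DMB did not pass without DMSO replicate 2 (0.144), DMSO replicate 3 (0.166), OTX015 replicate 1 (0.0927), OTX015 replicate 2 (0.0532) or OTX015 replicate 3 (0.265).

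Interferon-stimulated genes had the lowest median of the lists shown, −1.0 over 40 tested, with 35 log2 fold changes below 0 and 4 genes that fell (0.804% of all genes tested did). APOL3, an apolipoprotein L, had 9.35, 35.7 and 22.2 CPM with OTX015, against 26.2, 82.9 and 105 CPM with DMSO (log2 −1.62 ± 0.37, edgeR adjusted p = 0.0206, and 0.116 with the replicate block). IFIH1, the RNA sensor MDA5, had 9.72, 27.9 and 30.1 CPM with OTX015, against 18.0, 76.1 and 128 CPM with DMSO (log2 −1.51 ± 0.37, edgeR adjusted p = 0.0299, and 0.0657 with the block). In both genes the deep libraries were the lowest of their group and the groups overlapped. APOL6 fell by 1.25 (edgeR adjusted p = 0.0356, and 0.107 with the block) and MX2, a restriction factor of viruses, by 1.04 on the log2 scale (edgeR adjusted p = 0.0452, and 0.0987 with the block). The groups of MX2 overlapped and those of APOL6 did not. APOL6 passed in none of the 6 fits with 1 library left out (0.0522 to 0.25). APOL3, IFIH1 and MX2 did not pass without DMSO replicate 2 (0.0691, 0.0718 and 0.0501 in that order), DMSO replicate 3 (0.136, 0.223 and 0.503), OTX015 replicate 2 (0.0597, 0.151 and 0.278) or OTX015 replicate 3 (0.166, 0.170 and 0.184). APOL3 (0.0927) and IFIH1 (0.0719) also did not pass without OTX015 replicate 1.

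MYC itself did not pass. It had 252, 176 and 110 CPM with OTX015, against 306, 287 and 203 CPM with DMSO, and the groups overlapped (log2 −0.61 ± 0.34, edgeR adjusted p = 0.417). Of 36 tested MYC target genes of the nucleolus and ribosome assembly, 6 fell (0.804% of all genes tested did), 0 rose, all 36 log2 fold changes were below 0 and the median was −0.61. NOP16, a nucleolar protein of the large ribosomal subunit's assembly, had 73.1, 97.1 and 93.2 CPM with OTX015, against 119, 225 and 236 CPM with DMSO (log2 −1.08 ± 0.18, edgeR adjusted p = 0.00257, and 0.0700 with the replicate block). It passed in all 6 fits with 1 library left out. EBNA1BP2, PA2G4 and WDR43 fell by 0.73, 0.81 and 0.74 on the log2 scale (edgeR adjusted p = 0.0124, 0.0288 and 0.0422, and 0.0383, 0.0657 and 0.0987 with the block). PES1 and DDX21 were the other 2 (edgeR adjusted p = 0.0497 and 0.0498, and 0.351 and 0.117 with the block), and without single libraries each passed for DMSO replicate 1 alone, with 0.0812 to 0.293 and 0.0978 to 0.386 otherwise. In fits with a library left out, EBNA1BP2, PA2G4 and WDR43 did not pass without DMSO replicate 2 (0.0554, 0.101, 0.0905), DMSO replicate 3 (0.109, 0.182, 0.355), OTX015 replicate 2 (0.0755, 0.106, 0.158) or OTX015 replicate 3 (0.0943, 0.204, 0.253), and PA2G4 (0.0569) and WDR43 (0.0832) also without OTX015 replicate 1.

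Of 42 tested MYC target genes of metabolism and growth, 6 fell (0.804% of all genes tested did), 0 rose, 40 had a log2 fold change below 0 and the median was −0.57. BCAT1, which transfers the amino group of branched-chain amino acids, had 52.5, 45.2 and 55.2 CPM with OTX015, against 94.1, 116 and 192 CPM with DMSO (log2 −1.35 ± 0.27, edgeR adjusted p = 0.00704). MRTO4, a ribosome assembly factor, had 108, 68.6 and 72.4 CPM with OTX015, against 168, 146 and 144 CPM with DMSO (log2 −0.90 ± 0.17, edgeR adjusted p = 0.00631). PRMT5, an arginine methyltransferase, fell by 0.76 (edgeR adjusted p = 0.0124) and MTHFD1L, a mitochondrial folate enzyme, by 1.04 on the log2 scale (edgeR adjusted p = 0.0155). The E-box CACGTG, which MYC and MAX bind, stood in the 250 bases before the start of 14 of the 37 genes of this list that have a window (37.8%), in 2 of 27 of the nucleolar list (7.41%) and in 9.09% of all tested genes with a window. Of the 6 genes that fell, 2 held it in this list and 1 in the nucleolar list. Among all 80 genes that fell and have a window, 11 held it (13.8%). The lists were picked as MYC targets, so their shares describe the lists, and a link to the falls was not tested. Without single libraries, BCAT1 did not pass for DMSO replicate 3 (0.0950), OTX015 replicate 2 (0.0684) and OTX015 replicate 3 (0.0633), MRTO4 for DMSO replicate 2 (0.0501) and OTX015 replicate 3 (0.0567), PRMT5 for DMSO replicate 2 (0.0992), DMSO replicate 3 (0.0540) and OTX015 replicate 3 (0.141), and MTHFD1L for DMSO replicate 2 (0.117), DMSO replicate 3 (0.0787), OTX015 replicate 2 (0.0574) and OTX015 replicate 3 (0.149).

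The remaining named falls included secreted ligands. WNT10A and WNT10B, ligand genes of the Wnt family on chromosomes 2 and 12, both fell. WNT10A had 0.369, 2.23 and 2.15 CPM with OTX015, against 5.89, 17.3 and 23.9 CPM with DMSO (log2 −3.47 ± 0.68, edgeR adjusted p = 0.00704). WNT10B had 1.84, 0.558 and 1.43 CPM with OTX015, against 6.69, 7.43 and 12.3 CPM with DMSO (log2 −2.53 ± 0.53, edgeR adjusted p = 0.0155, and 0.0720 with the replicate block). The other 23 of 25 tested Wnt pathway genes did not pass, and 0.804% of all genes tested fell. COL1A1, a fibrillar collagen chain, had 2 counts over the OTX015 libraries against 46 over the DMSO libraries, a ratio of 0.0460 with a 95% exact counting interval of 0.00541 to 0.176 (edgeR adjusted p = 0.0124). MLKL, the executor of necroptosis, had 2.58, 1.67 and 0.717 CPM with OTX015, against 13.5, 7.43 and 7.76 CPM with DMSO (log2 −2.43 ± 0.59, edgeR adjusted p = 0.0287, and 0.102 with the block). The potassium channel gene KCNH4, the secreted DNase gene DNASE1L3, the actin nucleator gene COBL and the dendrin gene DDN fell by 2.21, 2.02, 1.84 and 2.03 on the log2 scale (edgeR adjusted p = 0.0374, 0.0299, 0.0443 and 0.0336), and the first 3 did not pass with the block (0.102, 0.0820 and 0.102).

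Several of these calls were lost with 1 library left out. WNT10A did not pass without OTX015 replicate 1 (0.0799) or 3 (0.0526), and COL1A1 without DMSO replicate 3 (0.0832) or OTX015 replicate 2 (0.103) or 3 (0.102). WNT10B passed without DMSO replicate 1 and had 0.0529 and 0.0950 without DMSO replicates 2 and 3 and 0.0544, 0.103 and 0.0877 without OTX015 replicates 1, 2 and 3. MLKL (0.0847 to 0.153), KCNH4 (0.0691 to 0.192) and DNASE1L3 (0.0855 to 0.167) passed in none of the 6 fits with 1 library left out. DDN and COBL passed without DMSO replicate 1 alone, with 0.135 and 0.179 without DMSO replicate 2, 0.150 and 0.169 without DMSO replicate 3, 0.0614 and 0.13 without OTX015 replicate 1, 0.147 and 0.183 without OTX015 replicate 2, and 0.202 for both without OTX015 replicate 3.

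Smaller numbers of genes passed in the other lists. Over all genes tested 1.23% rose and 0.804% fell. A list of this size with 1 or 0 called genes, here or in other paragraphs, is close to those shares and says little about its group. Of 28 tested chemokine, cytokine and receptor genes, 1 rose (CCL5, above), 3 fell and the median log2 fold change was −0.71. Among the falls was IL16, a lymphocyte chemoattractant, with 14.5, 21.8 and 12.2 CPM with OTX015, against 37.5, 61.9 and 36.2 CPM with DMSO (log2 −1.43 ± 0.37, edgeR adjusted p = 0.0397), which passed in none of the 6 fits with 1 library left out (0.0724 to 0.241). Of 24 genes of glycolysis and glucose sensing, TXNIP and its relative ARRDC3 rose and 0 fell. ARRDC3 had 91.7, 25.1 and 36.6 CPM with OTX015, against 39, 6.19 and 14.9 CPM with DMSO, and the groups overlapped, with the deep library the highest in both (log2 1.41 ± 0.26, edgeR adjusted p = 0.00507). It did not pass without DMSO replicate 2 (0.0501) or OTX015 replicate 3 (0.0554). Of 32 autophagy and lysosome genes the protease gene CTSB rose, by 0.84 ± 0.19 on the log2 scale (edgeR adjusted p = 0.0191), but not without DMSO replicate 2 (0.187), DMSO replicate 3 (0.136), OTX015 replicate 2 (0.0574) or OTX015 replicate 3 (0.171). Of 24 p53 target genes 1 rose (BTG2), of 14 heat shock genes 1 fell, and of the 10 tested genes of the MYC and MAX network and the 16 of the Notch pathway 0 passed.

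Several groups had no member that passed, which does not show that they did not change. Of 10 tested pro-survival genes of the BCL2 family and its relatives and 22 pro-death genes, 0 passed, with median log2 fold changes of 0.02 and −0.01. BCL2, which blocks apoptosis, had 180, 610 and 605 CPM with OTX015 and 157, 578 and 543 CPM with DMSO (log2 0.14 ± 0.19, edgeR adjusted p = 0.835). CCND3 and CDKN1A did not pass either, with log2 fold changes of 0.24 ± 0.34 and 0.24 ± 0.35. None of 18 tested G1 cyclin, CDK and inhibitor genes passed, and of 35 genes of S phase and mitosis RRM2, a subunit of ribonucleotide reductase, rose (log2 1.10 ± 0.29, edgeR adjusted p = 0.0402). RRM2 passed with the replicate block and in none of the 6 fits with 1 library left out (0.0804 to 0.220). Of 75 ribosomal protein genes 0 passed and the median was −0.02, and 0 of 15 mitochondrially encoded, 24 cholesterol synthesis, 19 ATF4-related and 18 ER stress genes passed.

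OTX015 was compared with NEO2734 directly, without the DMSO libraries that both share. No gene was called with edgeR between the 2 compounds (0% of 12814 genes), 410 genes had an unadjusted p under 0.05 (3.2%), and DESeq2 called 24, 3 higher and 21 lower with OTX015. The 3 ran from 0.39 to 0.67 on the log2 scale. Many of the 21 had differences too large to read as fold changes, such as LAG3 at −19.4 and KRT5 at −18.4. DOHH2 NEO2734 replicate 3 held genes private to OCILy10 at 10.6% of their level there, and without NEO2734 replicate 2 edgeR called 5 genes, all lower with OTX015. The doses are not in the labels and are not known to match. The lowest unadjusted p values belonged to GALNT7, NOTCH2, LARP1, PAWR and GTSF1, none of which passed (edgeR adjusted p = 0.985 each). LARP1, which binds mRNAs of the translation machinery, had 510, 885 and 789 CPM with OTX015, against 319, 590 and 453 CPM with NEO2734 (log2 0.68 ± 0.17). NOTCH2 had 1.23, 5.58 and 6.45 CPM with OTX015, against 2.78, 8.09 and 55.2 CPM with NEO2734, where the third library stood apart. Among the 12 named rises the log2 difference, OTX015 minus NEO2734, ran from −1.38 to 0.09, and its 95% interval held 0 for 10. The exceptions were H2BC21 at −1.38 (−2.43 to −0.32) and ZSWIM6 at −0.50 (−0.93 to −0.07). Among the 12 named falls it ran from −1.09 to 2.97 and the interval held 0 for all but WNT10B, at 2.97 (1.17 to 4.77). WNT10B had only 18 counts over the OTX015 libraries and 2 over the NEO2734 libraries. Among the genes read everywhere that are reported here, the interval left out 0 for MYC, PAX5 and BCL2, none of which passed. MYC differed by 1.07 (0.36 to 1.77), PAX5 by 0.50 (0.04 to 0.95) and BCL2 by 0.51 (0.11 to 0.91). Mixed here means the 3 libraries that hold genes of another line: DOHH2 NEO2734 replicate 3, Toledo DMSO replicate 2 and OCILy10 CB103 replicate 2. Without NEO2734 replicate 3 and the other 2 mixed libraries, COL1A1, the lowest at −1.09, was at 0.31, and MS4A1, at −0.24, was at 0.46.

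Each compound was also read against the same 3 DMSO libraries, so the 2 sets of values below are not independent. NEO2734 raised 620 genes (4.84%) and lowered 818 (6.38%) in DOHH2. Without NEO2734 replicate 3 and the other 2 mixed libraries the counts were 875 (6.65%) and 831 (6.31%). All 12 named rises and 12 named falls were called in the same direction with NEO2734. HEXIM1 rose by 1.63 with OTX015 and 1.93 with NEO2734, and H2BC11 by 3.29 and 3.61. MYC, at −0.61 with OTX015 and not called, was at −1.67 with NEO2734 and was called (edgeR adjusted p = 0.00228). CIITA had log2 fold changes of −2.12 with OTX015 and −2.37 with NEO2734, and MS4A1 of −2.06 and −1.82, the last being −2.53 without NEO2734 replicate 3 and the other 2 mixed libraries.

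**Figure D3:**
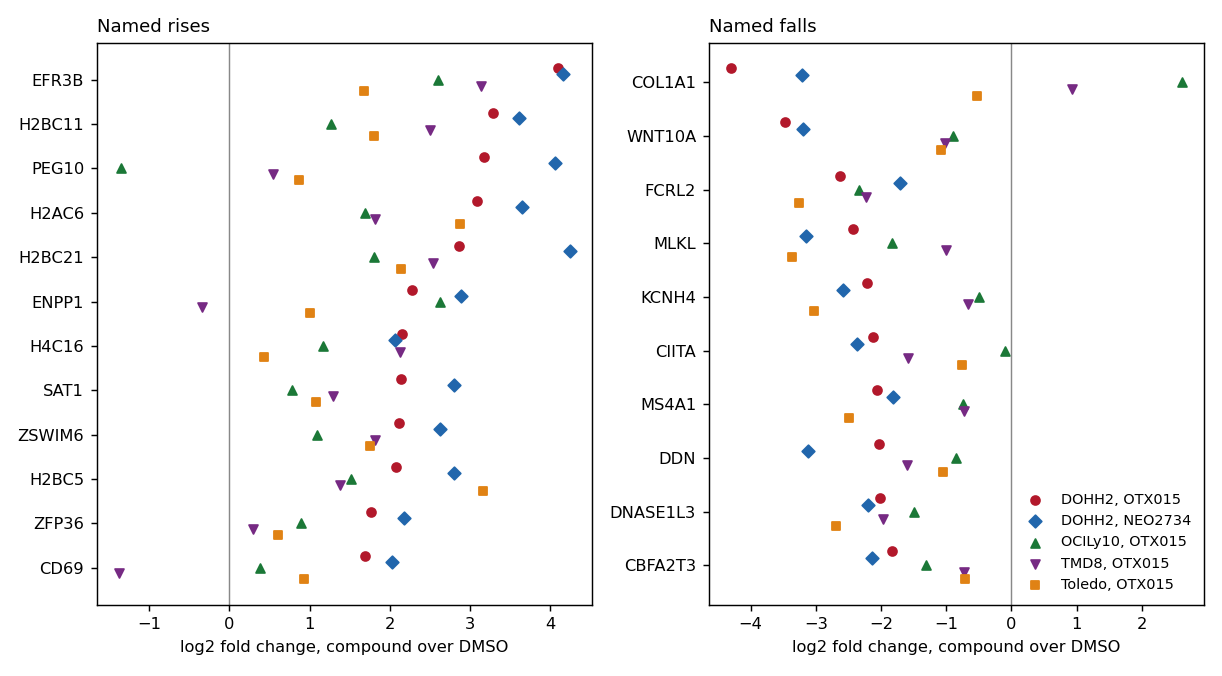
Log2 fold change over DMSO of the 12 named rises (left) and of 10 of the 12 named falls (right) in DOHH2 with OTX015 (red circles) and NEO2734 (blue diamonds) and in OCILy10, TMD8 and Toledo with OTX015. WNT10B and COBL are left out because a group of another line had 0 counts. All 12 rises are above 0 in Toledo, where PEG10 reaches 0.87, and PEG10 lies below 0 in OCILy10 at −1.35. The Toledo points include the mixed DMSO replicate 2, without which MS4A1 there is at −1.39 in place of −2.50.

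Whether the response in DOHH2 differed from that in the other lines was tested as the DOHH2 change minus the mean change in OCILy10, TMD8 and Toledo. No gene was called with edgeR (0% of 12814 genes), 665 had an unadjusted p under 0.05 (5.19%), and DESeq2 called 26, 19 with a higher and 7 with a lower value in DOHH2. Several of these 26 had log2 differences too large to read as fold changes, such as PNMA8A at 24.3, IL2RB at 19.2 and LAG3 at −12.8. The lowest p values belonged to ALKBH5, COL1A1, CRYBG1, POU2AF1 and ATF3, which did not pass (edgeR adjusted p = 0.0753, 0.129, 0.173, 0.224 and 0.224), though DESeq2 called all of them but COL1A1. ALKBH5, an RNA demethylase, had log2 fold changes of 0.23 in DOHH2 and 2.44, 1.12 and 0.80 in OCILy10, TMD8 and Toledo. POU2AF1, a B cell coactivator of OCT factors, had 0.41 in DOHH2 and −1.19, −1.67 and −0.49 in the other 3. Among the 12 named rises the difference ran from 0.06 to 3.15 and its 95% interval held 0 for 6, and among the 10 named falls with counts in all 8 groups it ran from −5.31 to 0.03 and held 0 for 6. These genes were chosen for the size of their change in DOHH2, which is also part of the difference. That choice by itself pushes the rises up and the falls down, so these intervals do not show a stronger response in DOHH2. None had an edgeR adjusted p below 0.129. With 3 libraries left out that hold genes of another line, Toledo DMSO replicate 2 among them, edgeR called 11 genes, these 5 among them (adjusted p = 0.0207 for ALKBH5, COL1A1 and ATF3, 0.0151 for CRYBG1 and 0.0276 for POU2AF1). The difference was positive for ATF3, CRYBG1, POU2AF1, PEG10, NFKBIA, IRF4 and IRF8 and negative for ALKBH5, COL1A1, CIITA and PTPN6. PEG10 differed by 3.21 ± 0.62 (edgeR adjusted p = 0.0276) and NFKBIA by 1.57 ± 0.29 (edgeR adjusted p = 0.0207). CIITA fell further in DOHH2 (difference −1.49 ± 0.27, edgeR adjusted p = 0.0207), and IRF4 and POU2AF1 were higher by 1.25 ± 0.25 (adjusted p = 0.0367) and 1.62 ± 0.31 (adjusted p = 0.0276).

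Called genes of DOHH2 were in part called in the other lines, whose DMSO libraries are their own. Of the 157 genes that rose in DOHH2, 35 rose in OCILy10 (22.3% of the DOHH2 rises and 24.5% of the 143 in OCILy10, which were 1.12% of genes tested there). In TMD8, 44 rose (28.0% of the DOHH2 rises and 40.7% of the 108 in TMD8, 0.843% of genes tested), and in Toledo 64 (40.8% and 19.3% of 332, 2.59% of genes tested). Of the 103 falls, 21 fell in OCILy10 (20.4% and 13.2% of 159, 1.24% of genes tested), 33 in TMD8 (32.0% and 14.2% of 232, 1.81%) and 29 in Toledo (28.2% and 4.05% of 716, 5.59%). These counts depend on the mixed libraries, Toledo DMSO replicate 2 among them. Without the 3, Toledo had 104 rises (0.79%) and 155 falls (1.18%), of which 30 and 17 were called in DOHH2 in the main fit. In all these counts the DOHH2 side stays at the 157 rises and 103 falls of the main fit. It is not the larger set called in DOHH2 without the 3 libraries. OCILy10 then had 396 and 541, sharing 53 and 42 with DOHH2, and TMD8 250 and 496, sharing 61 and 43. The sign was the same in all 3 other lines for 129 of the 157 rises and 94 of the 103 falls. Called in all 4 lines were 16 rises and 11 falls. With the other 3 lines called without the mixed libraries, 20 of the same 157 rises and 14 of the same 103 falls were. HEXIM1 is 1 of these rises, at 1.63 in DOHH2 and 1.42, 1.80 and 2.15 in OCILy10, TMD8 and Toledo. Others, named after their values were seen, are POLR2A, the largest subunit of RNA polymerase II, at 0.90, 1.15, 0.97 and 1.36 in the same order (1.70 in Toledo without the mixed libraries), and the mRNA export receptor gene NXF1 at 1.01, 0.76, 1.11 and 1.34. Among the falls were LAT2 at −1.40, −1.56, −1.58 and −1.49 and FCRL2 at −2.62, −2.35, −2.23 and −3.26. FCRL2 in Toledo had 3.79, 1.31 and 2.13 CPM with OTX015, against 14.0, 54.4 and 14.3 CPM with DMSO, and without DMSO replicate 2 and the other mixed libraries its change there was −2.31 ± 0.45 (edgeR adjusted p = 0.00705). The call of POLR2A in DOHH2 did not hold throughout: its groups overlapped, and it did not pass with the replicate block (0.218), without DMSO replicate 1 (0.169) or 2 (0.195), or without OTX015 replicate 1 (0.192), 2 (0.153) or 3 (0.0699). Across genes, the log2 fold changes in DOHH2 had a Pearson r of 0.298 with those in OCILy10, 0.361 with TMD8 and 0.283 with Toledo over 12814 genes, which are not independent replicates.

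**Figure D4:**
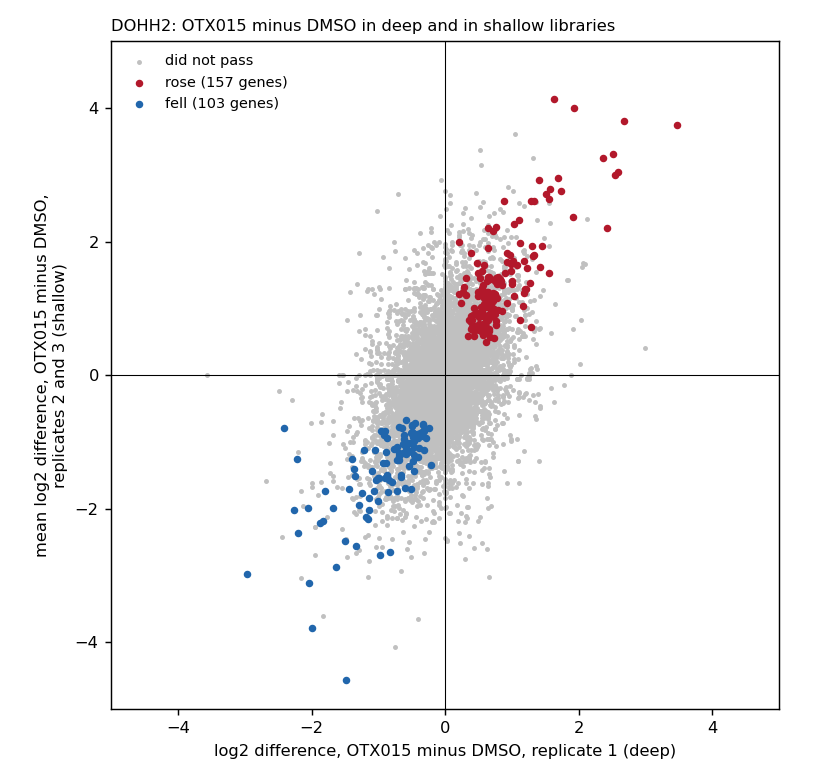
Log2 difference, OTX015 minus DMSO, in the deep replicate 1 libraries (x axis) and its mean over the shallow replicates 2 and 3 (y axis) for 12814 genes, with the 157 rises in red and the 103 falls in blue. All 260 called genes have the same sign on both axes, and most lie further from 0 on the y axis.

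The change was also read within replicate 1 and within replicates 2 and 3. Over 8754 genes with enough counts, the deep difference and the mean shallow difference had a Pearson r of 0.639 and the same sign for 72.2%, and all 260 called genes had the same sign in both, which their calls in a joint fit make likely. Of the called genes, 117 (45.0%) also differed between deep and shallow libraries, against 42.8% of all genes tested. Tested alone, the 4 shallow libraries gave 2 called genes and the 2 deep ones 0 (373 genes had an unadjusted p under 0.05). With every library left out in turn, 18 genes were called in all 6 fits, 13 higher and 5 lower, and 15 of these also with the replicate block. Of the 15, named after their values were seen, 14 have a symbol: ZSWIM6, H2BC11, HEXIM1, CIRBP, ZFP36, H2AC6, DHRS2, STRN, APLP2 and NXF1 rose, and CIITA, LAT2, ACSL5 and GAR1 fell.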

How the data were processed

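RNA-seq of 39 libraries of 4 lymphoma lines was read from the gene counts the authors deposited, which the submitters' processing notes tie to STAR, edgeR and hg38. The sources used here name no counting program, strandedness or version. The members and lists were chosen with earlier results of these data known. Of 15808 gene IDs, 14179 had a symbol and 15668 stood in GENCODE 29, whose hg38 coordinates are used.

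Counts were fitted with edgeR 4.0.16 in R 4.3.3 (quasi-likelihood test, TMM scaling, filterByExpr), over all 39 libraries, with a coefficient for each of 13 groups and a depth term per line (libraries of at least 5000000 counts are deep), leaving 22 residual degrees of freedom. p-values were Benjamini-Hochberg adjusted over 12814 genes and genes under 0.05 were called. Alternatives used limma 3.58.1, DESeq2 1.42.0, other scalings, filters and depth terms, and each library left out. Named genes are the 12 largest rises and 12 largest falls among called genes whose groups do not overlap, averaging 5 CPM or more with OTX015 or DMSO, with a symbol and no pseudogene, antisense or readthrough label, up to 4 called members of lowest p per list, and a few genes read everywhere, of which 1 is not reported here. For the other comparisons they are the 5 genes of lowest p.

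Deviations from the group mean correlated between OTX015 and DMSO at 0.918, 0.544 and 0.685 for replicates 1, 2 and 3 over 8754 genes with log2 CPM above 3, all above the 0.1 set for treating the numbers as a block. The 3 deviations of a group cancel out, so the values for replicates 2 and 3 in part repeat that of replicate 1. The difference between replicates 2 and 3 correlated at −0.04, so that no pairing of those 2 was seen apart from the contrast with replicate 1. The main fit held the depth term, which uses fewer degrees of freedom, in place of the block, which was run as an alternative. Library totals ran from 1355440 to 8368887 counts, and counting intervals cover counting error only.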

Additional observations from a re-analysis of the deposited data

How the results depend on the processing

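The 260 genes called for OTX015 against DMSO became 294 with upper quartile scaling, 334 with library totals and 209 without a filter on low counts. They were 498 with DESeq2 (262 higher and 236 lower), 146 with limma-voom, 16 without a depth term, 152 with 1 depth term shared by all lines, 137 with the replicate block and 535 with the DOHH2 libraries fitted alone (265 higher and 270 lower). Fitting the shallow libraries by themselves gave 2 and the deep ones 0, where DOHH2 has 1 library a group and its spread is assumed to be that of the other groups. Without the 3 libraries that hold genes of another line, 678 were called, all 260 among them. With 1 library left out the count ran from 25 to 227. Of 58 named called genes, 33 kept their call with the block, 44 with limma-voom, 5 without a depth term and 11 to 41 with 1 library left out, and 0 changed sign. For OTX015 against NEO2734, 0 genes were called, 24 with DESeq2 and 0 to 5 with 1 library left out. For the response in DOHH2 minus the other lines, 0 were called, 26 with DESeq2, 11 without the 3 libraries and 0 to 0 with 1 DOHH2 library left out. In both comparisons, some DESeq2 calls had log2 differences too large to read as fold changes. The calls in Toledo, OCILy10 and TMD8 and with NEO2734 without the 3 libraries were added after the data were seen. The cause of these shifts was not tested.

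Genes that did not pass changed sign in some fits. With the deep libraries alone the log2 fold change of BCL6 was 0 and of CDKN1A −0.16. With the shallow libraries alone it was −0.0055 for CREBBP and −0.061 for BRD3. With 1 library left out CREBBP ran from −0.034 to 0.22 and BRD3 from −0.055 to 0.29. Few counts limit the precision for BCL6, SERPINI1, EFR3B, COL1A1, WNT10B and H2BC4, among others.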

Other observations

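These genes were named after their values were seen. CIRBP, a cold-inducible RNA-binding protein, had 391, 564 and 657 CPM with OTX015, against 217, 290 and 338 CPM with DMSO (log2 0.92 ± 0.14, edgeR adjusted p = 0.000891). ACSL5, which activates long-chain fatty acids, had 42.7, 42.4 and 41.6 CPM with OTX015, against 79.7, 110 and 138 CPM with DMSO (log2 −1.34 ± 0.21, edgeR adjusted p = 0.00117). GAR1, a subunit of the box H/ACA particles that modify ribosomal RNA, had 37.1, 32.4 and 26.5 CPM with OTX015, against 68.8, 57.5 and 75.7 CPM with DMSO (log2 −1.06 ± 0.17, edgeR adjusted p = 0.00139). The groups did not overlap in these 3 genes, which passed with each of the 6 libraries left out and with the replicate block.

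DHRS2, a short-chain dehydrogenase, was uneven among OTX015 libraries. It had 34.7, 32.9 and 2.15 CPM with OTX015, against 2.72, 0 and 0.647 CPM with DMSO, and the groups overlapped (log2 4.10 ± 0.70, edgeR adjusted p = 0.00257).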
